A study of Mus musculus with 6 samples.

Results

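The immediate early transcription factors examined here were Fos, Fosb, Jun, Junb, Jund, Egr1, Ier2, Atf3, Btg2 and Nr4a1. These 10 genes were chosen by gene name, and 9 of them had a row among the 14004 genes of the deposited expression table. The expression of Fosb was not analysed here. RNA came from heart ventricle of 1-day-old (P1) mice on a C57BL6 background, by stranded sequencing of polyadenylated RNA. The groups were the Rbpms knockout (Rbpms KO, 3 libraries) and the wild type (WT, 3 libraries). Nothing in the labels names a further allele, an agent, the number of animals behind a library or which cells lack the gene. Rbpms encodes an RNA-binding protein, and the series title names noncompaction cardiomyopathy and cytokinesis of cardiomyocytes.

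Immediate early genes are transcribed within minutes of a stimulus, without new protein synthesis, because the factors that drive them are already in the cell and are switched on by phosphorylation. Serum response factor with its ternary complex partners, and the CREB family, are the classical drivers, acting downstream of the MAP kinases and of cyclic AMP and calcium. Fos and Jun proteins pair through leucine zippers to form AP-1, while Egr1 and Nr4a1 bind DNA by zinc fingers. Many of the transcripts are short-lived, and in heart they respond to stretch, injury and adrenergic signals. They are also known to respond to handling of tissue before RNA is extracted.

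Expression was given as RPKM, a read number divided by gene length in kilobases and by the library total. Rbpms itself had 0.594, 0.276 and 0.240 RPKM in the Rbpms KO libraries, against 33.1, 35.7 and 38.1 RPKM in the WT libraries, so the labels matched the targeted gene. The depth is unknown, because whole reads could not be recovered from the values. WT replicates 1 and 2 lay closest together. Over the 3677 genes that averaged 10 RPKM or more, the SD of the log2 ratio between those libraries was 0.132, and it was 0.244 to 0.345 for every other pair within a group. The 5 heart muscle markers (Myh6, Tnnt2, Actc1, Ryr2 and Pln) summed to 6968 to 10157 RPKM in Rbpms KO libraries and 10771 to 11960 RPKM in WT libraries. Within that sum, made up mostly of Actc1 and Myh6, Myh6 was below WT in all Rbpms KO libraries, Pln was above WT in all of them, and Actc1, Tnnt2 and Ryr2 overlapped. Markers of other cells also differed between the groups. Airway markers (6 of 7 listed) summed to 1.64 to 19.8 RPKM in Rbpms KO libraries and 624 to 881 RPKM in WT libraries, and the 5 smooth muscle markers summed to 178 to 260 RPKM in Rbpms KO libraries and 852 to 1004 RPKM in WT libraries. Of these markers, Ager (airway) was above WT in all Rbpms KO libraries, Tagln (smooth muscle) overlapped, and every other listed one was below WT. Acta2 made up most of the smooth muscle sum. The 5 markers of endothelium and endocardium summed to 211 to 245 RPKM in Rbpms KO libraries and 167 to 190 RPKM in WT libraries. Among them, Pecam1 and Npr3 were above WT in all Rbpms KO libraries, and Cdh5, Kdr and Tek overlapped. The fibroblast marker sum overlapped between the groups (244 to 330 RPKM in Rbpms KO and 244 to 367 RPKM in WT). Within it, Tcf21 was above WT in all Rbpms KO libraries (limma adjusted p = 0.0221), and Col1a1, Col1a2, Pdgfra and Dcn overlapped. The immune cell marker sum also overlapped (5.93 to 6.68 RPKM in Rbpms KO and 5.97 to 8.27 RPKM in WT, 4 of 5 listed). Red blood cell markers reached 2407 RPKM in WT replicate 3, while the other 5 libraries had 689 to 906 RPKM. All 3 listed nerve cell markers together were low, at 0.451 to 0.725 RPKM in Rbpms KO and 0.803 to 1.04 RPKM in WT.

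The promoters are shown because early genes are driven by short DNA elements next to their start sites, and the genes described here differ in which of those letters they carry. For 8 of the 10 members, all but Egr1 and Ier2, RefSeq windows of 250 bases upstream of the start site on GRCm38.p6 were matched by symbol and searched. The 170 bases next to the start site are printed for Btg2, Nr4a1 and the AP-1 genes Fos, Jun and Junb, the 5 members with the largest positive differences between genotypes, reading toward the gene. Capitals mark the letters of the cAMP response element TGACGTCA or its shorter core TGACG on either strand, of the TATA box TATAAA and of the octamer TGACATCA.
Fos promoter, chr12:85473720-85473889, plus strand: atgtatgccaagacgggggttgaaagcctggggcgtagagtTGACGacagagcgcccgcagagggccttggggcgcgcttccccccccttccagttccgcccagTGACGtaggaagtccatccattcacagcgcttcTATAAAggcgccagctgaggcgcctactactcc
Jun promoter, chr4:95052223-95052392, minus strand: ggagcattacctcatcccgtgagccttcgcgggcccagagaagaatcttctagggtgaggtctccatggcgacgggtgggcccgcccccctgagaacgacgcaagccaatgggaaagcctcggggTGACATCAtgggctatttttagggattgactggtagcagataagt
Junb promoter, chr8:84978749-84978918, minus strand: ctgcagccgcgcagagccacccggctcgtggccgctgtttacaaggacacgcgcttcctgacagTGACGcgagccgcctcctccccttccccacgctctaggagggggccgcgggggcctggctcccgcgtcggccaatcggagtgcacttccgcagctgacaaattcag
Btg2 promoter, chr1:134079156-134079325, minus strand: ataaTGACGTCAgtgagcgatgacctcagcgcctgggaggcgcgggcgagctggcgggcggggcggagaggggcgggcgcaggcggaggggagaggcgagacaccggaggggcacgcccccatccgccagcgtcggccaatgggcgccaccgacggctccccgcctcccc
Nr4a1 promoter, chr15:101266676-101266845, plus strand: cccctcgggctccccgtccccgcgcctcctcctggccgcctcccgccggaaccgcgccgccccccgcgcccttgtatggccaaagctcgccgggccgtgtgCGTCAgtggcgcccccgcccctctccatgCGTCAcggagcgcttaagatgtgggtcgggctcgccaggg
The core TGACG, searched on both strands, was present in 6 of the 8 windows (Fos, Fosb, Junb, Atf3, Btg2 and Nr4a1), while 17.8% of 32851 promoter windows of this length held it. The whole element, which contains the core, was present only in the Btg2 window, 166 to 159 bases upstream, and in 1.55% of all windows. The TATA box letters were present only in the Fos window among the 8, and in 12.4% of all windows. The octamer was not among the letters planned for the search, so its presence in the Jun window is a description only. It was present 45 to 38 bases upstream of Jun and in 2.93% of all windows. The GC box GGGCGG was present in 6 of the 8 windows and in 32.7% of all windows. Neither the AP-1 letters TGANTCA nor the CArG box, the letters bound by serum response factor, occurred in any of the 8 windows. They occurred in 6.75% and 1.47% of all windows. The windows end 250 bases upstream, so sites farther out were not searched, nor were those of Egr1 and Ier2. The RefSeq start sites of Nr4a1, Atf3 and Jund lay 12577, 34706 and 1210 bases from the gene start in GENCODE release M21, so these 3 windows lie away from that gene start. A match to letters is a description and not evidence of binding.

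The 9 genes differed widely in level. Jund was highest, at 22.2 ± 4.76 RPKM in Rbpms KO and 20.9 ± 2.32 RPKM in WT (SD, n = 3 each), which placed it above 87.0% of tested genes in Rbpms KO and 86.2% in WT. Fos was lowest, at 2.23 ± 0.959 RPKM in Rbpms KO and 1.30 ± 0.334 RPKM in WT (SD, n = 3 each), which placed it above 29.8% of tested genes in Rbpms KO and 16.1% in WT. The median tested gene had 4.65 RPKM in Rbpms KO and 4.74 RPKM in WT, so that Jund, Jun, Btg2, Ier2 and Atf3 were above it in both groups and the other 4 genes below it.

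**Figure D1:**
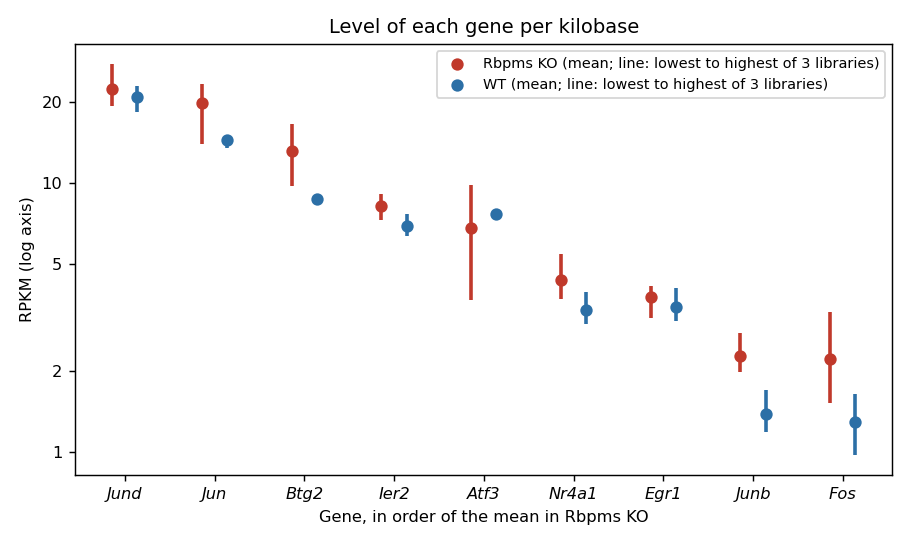
RPKM of the 9 immediate early genes on a log axis, genes ordered by their mean in Rbpms KO. Points are group means, red for Rbpms KO on the left and blue for WT on the right, and lines join the lowest and highest of 3 libraries. Jund has the highest mean (22.2 RPKM in Rbpms KO, 20.9 RPKM in WT) and Fos the lowest (2.23 RPKM in Rbpms KO, 1.30 RPKM in WT).

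In Rbpms KO the order of mean levels was Jund, Jun, Btg2, Ier2, Atf3, Nr4a1, Egr1, Junb and Fos. Between neighbours in that order, Btg2 and Ier2 did not overlap, nor did Egr1 and Junb, and every other neighbouring pair overlapped between libraries. In WT the order was Jund, Jun, Btg2, Atf3, Ier2, Egr1, Nr4a1, Junb and Fos. There, Atf3 overlapped Ier2, Egr1 overlapped Nr4a1 and Junb overlapped Fos, while the other neighbours were separate.

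The AP-1 genes Fos, Jun, Junb and Jund all had higher means in Rbpms KO, by the least for Jund. The groups overlapped for all of them but Junb. Fos, the partner that cannot pair with itself and needs a Jun protein, lies on chromosome 12 (ENSMUSG00000021250, GRCm38 chr12:85473890-85477273, plus strand, 4 exons). It had 3.32, 1.84 and 1.52 RPKM in Rbpms KO replicates 1 to 3, against 1.28, 0.975 and 1.64 RPKM in WT replicates 1 to 3. Rbpms KO replicate 1 stood above the other 5 libraries, Rbpms KO replicate 3 lay inside the WT range, and the groups overlapped. On the log2(RPKM + 0.5) scale, which understates the change of low genes, the difference was 0.56 (SE 0.243, limma adjusted p = 0.212). The two-sided exact permutation test gave p = 0.2. Without Rbpms KO replicate 1 the difference was 0.29.

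Junb, a Jun protein of weaker activating power than Jun, lies on chromosome 8 (ENSMUSG00000052837, chr8:84974484-84978718, minus strand, 1 exon). Junb had 2.77, 1.99 and 2.06 RPKM in Rbpms KO, against 1.27, 1.19 and 1.70 RPKM in WT. All 3 Rbpms KO libraries were above all 3 WT libraries. The difference was 0.55 (SE 0.153, limma adjusted p = 0.0744), and the two-sided exact permutation test gave p = 0.1, the smallest that 3 against 3 allows.

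Jun, the strongest activator of the family, is a gene of 1 exon on chromosome 4 (ENSMUSG00000052684, chr4:95049034-95052222, minus strand). Jun had 23.3, 22.0 and 13.9 RPKM in Rbpms KO, against 14.9, 14.8 and 13.5 RPKM in WT. Rbpms KO replicates 1 and 2 were above every WT library and Rbpms KO replicate 3 was inside the WT range. The difference was 0.41 (SE 0.177, limma adjusted p = 0.211, exact permutation p = 0.3). Without Rbpms KO replicate 3 it was 0.64 and passed the threshold (limma adjusted p = 0.0135, over a range of 0.0135 to 0.438 for all alternatives).

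Jund, the Jun protein kept at a steady level in most resting cells, is a gene of 1 exon on chromosome 8 (ENSMUSG00000071076, chr8:70698949-70700616, plus strand). Jund had 19.7, 27.7 and 19.3 RPKM in Rbpms KO, against 21.4, 18.3 and 22.9 RPKM in WT. Rbpms KO replicate 2 was highest and WT replicate 2 lowest, with the other libraries mixed. The difference was 0.08 with a 95% interval of -0.27 to 0.42 (limma adjusted p = 0.804).

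Jun, Junb and Jund together, a sum chosen after the values were seen, made 45.8, 51.7 and 35.2 RPKM in Rbpms KO, against 37.5, 34.3 and 38.1 RPKM in WT. Rbpms KO replicates 1 and 2 were above the WT libraries, whereas Rbpms KO replicate 3 was inside their range. The two-sided exact permutation test gave p = 0.3. Jund made up 43.0, 53.6 and 54.7% of that sum in Rbpms KO, against 57.0, 53.4 and 60.0% in WT, and these shares overlapped (exact permutation p = 0.3).

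The other DNA-binding members had smaller differences than Junb and Fos, and none passed the threshold. Egr1, a zinc finger factor induced by serum and stretch, lies on chromosome 18 (ENSMUSG00000038418, chr18:34859823-34864984, plus strand, 2 exons). Egr1 had 4.14, 4.05 and 3.15 RPKM in Rbpms KO, against 3.24, 3.06 and 4.07 RPKM in WT. The groups were interleaved, with WT replicate 3 next to Rbpms KO replicates 1 and 2. The difference was 0.11 with a 95% interval of -0.21 to 0.43 (limma adjusted p = 0.665). With 1 library left out it ran between 0.041, with WT replicate 2 omitted, and 0.22, with replicate 3 of either group omitted.

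Nr4a1, an orphan nuclear receptor, lies on chromosome 15 (ENSMUSG00000023034, chr15:101254269-101274795, plus strand, 8 exons). Nr4a1 had 5.46, 3.72 and 3.89 RPKM in Rbpms KO, against 3.23, 2.98 and 3.94 RPKM in WT. Rbpms KO replicate 1 was highest, and WT replicate 3 was above both other Rbpms KO libraries. The difference was 0.31 (SE 0.157, limma adjusted p = 0.276), and 0.16 without Rbpms KO replicate 1.

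Atf3, a bZIP protein that pairs with Jun proteins and represses many targets as a homodimer, lies on chromosome 1 (ENSMUSG00000026628, chr1:191170296-191218039, minus strand, 4 exons). Atf3 had 6.81, 9.83 and 3.67 RPKM in Rbpms KO, against 7.40, 7.81 and 7.83 RPKM in WT. The Rbpms KO libraries held both the highest and the lowest value, while the WT libraries differed little. Atf3 was the 1 member of 9 with a negative difference, -0.26 with a 95% interval of -0.91 to 0.38 (limma adjusted p = 0.614). That sign rested on Rbpms KO replicate 3, without which the difference was 0.09.

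Ier2 and Btg2 are early response genes that are not classical DNA-binding factors. Btg2, an antiproliferative protein that recruits the CCR4-NOT deadenylase and is a p53 target, lies on chromosome 1 (ENSMUSG00000020423, chr1:134075170-134079120, minus strand, 2 exons). Btg2 had 16.5, 13.1 and 9.75 RPKM in Rbpms KO, against 8.35, 8.77 and 9.10 RPKM in WT. All Rbpms KO libraries were above all WT libraries, and Rbpms KO replicate 3 was the nearest to them. The difference was 0.53 (SE 0.165, limma adjusted p = 0.104), and the exact permutation test gave p = 0.1. Without Rbpms KO replicate 3 the difference was 0.72 and passed the threshold (limma adjusted p = 0.0229, over a range of 0.0229 to 0.279 for all alternatives).

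Ier2, a short nuclear protein, is a gene of 1 exon on chromosome 8 (ENSMUSG00000053560, chr8:84661331-84662852, minus strand). Ier2 had 9.08, 8.31 and 7.27 RPKM in Rbpms KO, against 6.36, 6.79 and 7.68 RPKM in WT. Rbpms KO replicates 1 and 2 were above the WT libraries and Rbpms KO replicate 3 was below WT replicate 3. The difference was 0.23 with a 95% interval of -0.02 to 0.48 (limma adjusted p = 0.255).

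**Figure D2:**
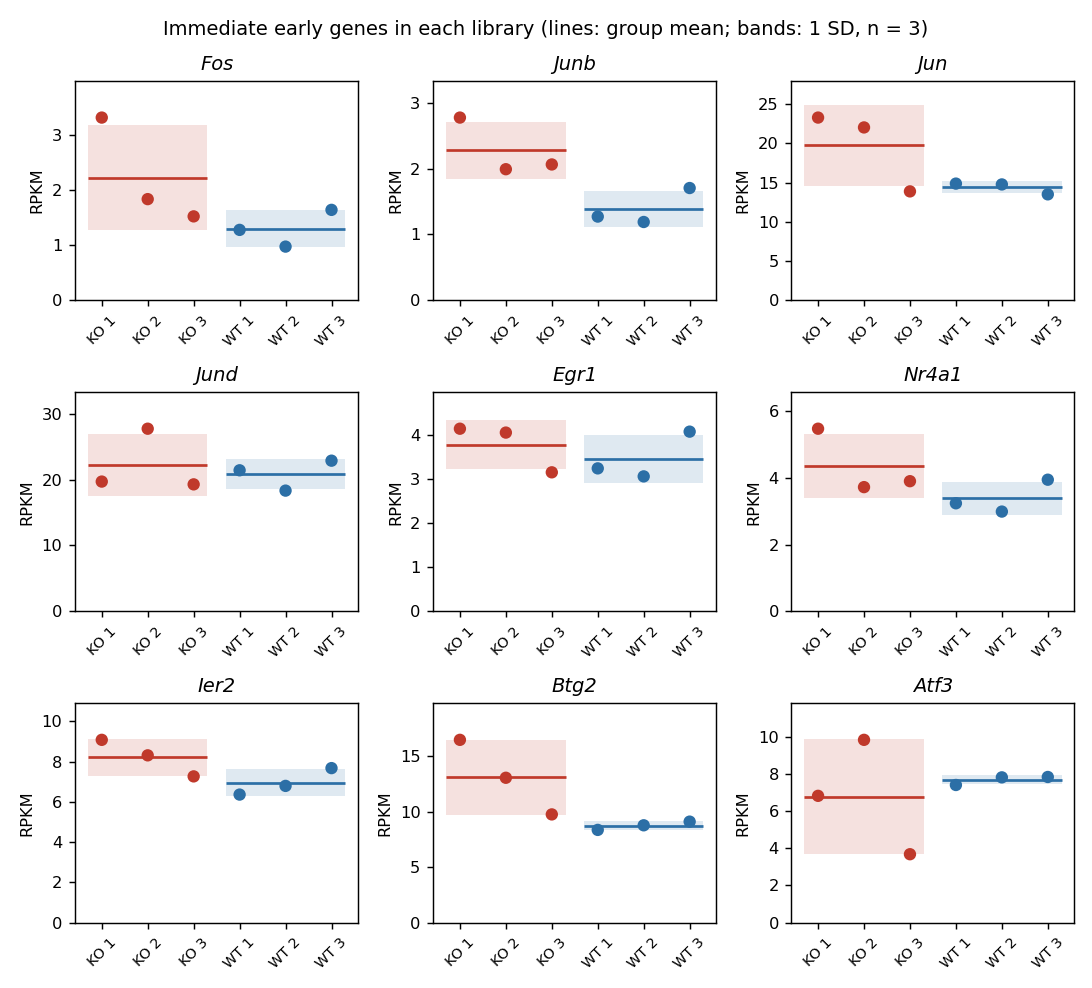
RPKM of each of the 9 genes in each library, one panel per gene with its own axis, Rbpms KO replicates left in red and WT replicates right in blue, with lines at the group mean and bands of 1 SD (n = 3). Junb and Btg2 are the 2 genes whose Rbpms KO libraries all lie above the WT libraries, and Atf3 ranges from 3.67 to 9.83 RPKM among the Rbpms KO libraries.

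Called at a limma adjusted p below 0.05, 0 of the 9 genes passed, against 6.37% of the 12911 genes tested (2.38% higher in Rbpms KO and 3.99% lower). At an unadjusted p below 0.05, 4 of the 9 passed (Fos, Jun, Junb and Btg2, each with a higher mean in Rbpms KO), against 23.5% of tested genes, or 9.33% counting higher in Rbpms KO. The groups did not overlap for 2 of the 9 (Junb and Btg2, Rbpms KO above WT), against 29.8% of tested genes, or 11.6% with Rbpms KO above and 18.2% with Rbpms KO below. The difference was positive for 8 of the 9 genes and its median was 0.31, against a median of -0.03 and 44.0% positive over all tested genes. The members share the same 6 libraries and are not separate observations. Over the 36 pairs of members the median correlation r across libraries was 0.65, with 12 pairs above 0.8 and 3 below 0. Without Rbpms KO replicate 1 the members' median was 0.16, against -0.05 over all tested genes, and 8 of the 9 were positive. The model behind the test in the authors' deposited table is not known here. In the authors' deposited table Btg2 (log2 fold change 0.62, FDR 0.00747) and Junb (log2 fold change 0.75, FDR 0.0175) were below a false discovery rate of 0.05, which 11.1% of genes in the table were (5.45% higher in Rbpms KO and 5.64% lower). Jun, at an FDR of 0.0516, and Fos, at an FDR of 0.0891, lay above it in the authors' deposited table, and Nr4a1, Ier2, Egr1, Jund and Atf3 ran between an FDR of 0.174 and 0.843 in that deposited table. Junb was also called by limma once libraries were rescaled to a common median ratio (adjusted p = 0.0463, against 6.52% of genes called) and without WT replicate 3 (adjusted p = 0.0496, against 6.72%), over a range of 0.0463 to 0.274 for all alternatives. Without Rbpms KO replicate 3, where Jun and Btg2 were called, 4.07% of genes were. The airway, smooth muscle, heart muscle and endothelial marker sums given above, and the low nerve cell sum, also differed between the groups without overlap, though not every marker did. The part of these markers in the members' differences was not tested.

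**Figure D3:**
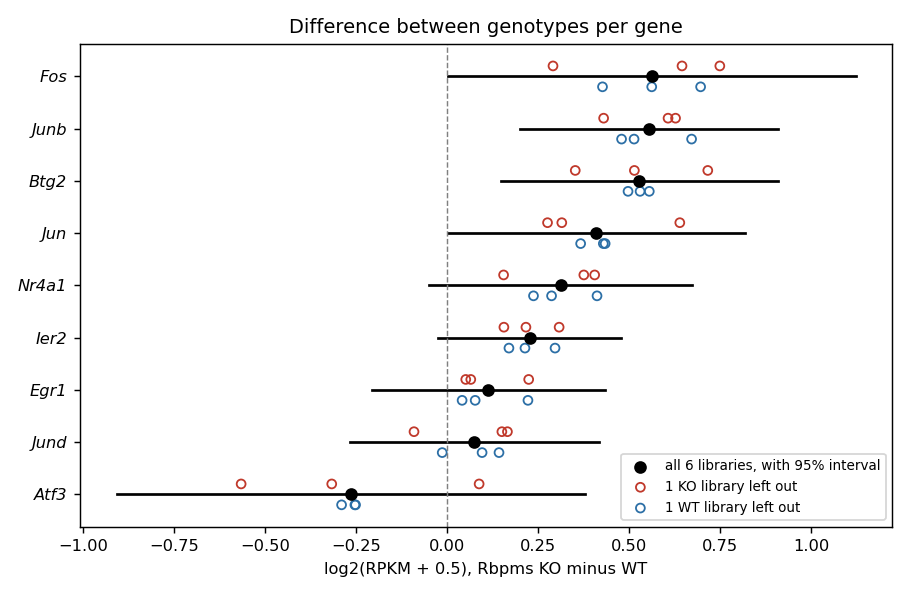
Difference in mean log2(RPKM + 0.5), Rbpms KO minus WT, for each of the 9 genes. Black points with lines are the values over 6 libraries with their 95% intervals from limma, and open circles are the values with 1 Rbpms KO library (red) or 1 WT library (blue) left out. Fos, Junb, Btg2 and Jun have intervals above 0, and Jund, Egr1, Ier2, Nr4a1 and Atf3 have intervals that include 0. The lower ends are 0.0019 for Fos and 0.0017 for Jun, and 0.20 for Junb and 0.15 for Btg2.

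No 2 of the 9 members had the same order of the 6 libraries, but some features of the order recurred. Rbpms KO replicate 1 was the highest library for 7 of the 9 genes, against 29.5% of tested genes, and Rbpms KO replicate 2 for the other 2 (Jund and Atf3), against 10.5%. Rbpms KO replicates 1 and 2 were both above all WT libraries for 5 of the 9 (Fos, Jun, Junb, Btg2 and Ier2), against 18.4% of tested genes. Rbpms KO replicate 3 was above all WT libraries for 2 of the 9 and inside their range for 6, against 22.2% and 33.1%. WT replicate 2 was the lowest library for 5 of the 9, against 10.4% of tested genes. Within the groups, WT replicate 3 was the highest WT library for 8 of the 9, against 47.7% of tested genes. Rbpms KO replicate 3 was the lowest Rbpms KO library for 7 of the 9, against 45.8%. Scaled within each gene to a mean of 0 and an SD of 1 and averaged over the 9 genes, the level was 1.10, 0.76 and -0.49 in Rbpms KO replicates 1 to 3, against -0.61, -0.81 and 0.05 in WT replicates 1 to 3. By this measure Rbpms KO replicate 3 was below WT replicate 3, and replicates 1 and 2 of Rbpms KO stood above the other 4 libraries. Rbpms KO replicate 1 also had the lowest heart muscle marker sum, 6968 RPKM, with Actc1 at 4362 RPKM. Its Pln level, 450.5 RPKM, was nonetheless the highest of the 6 libraries. The fibroblast marker sum was 330, 314 and 244 RPKM in Rbpms KO replicates 1 to 3, against 244, 268 and 367 RPKM in WT. Rbpms KO replicate 3 was the lowest Rbpms KO library for the fibroblast, immune cell, endothelial and airway sums. It was not the lowest for the heart muscle, smooth muscle, red blood cell and nerve cell sums. WT replicate 3 was the highest WT library for every marker sum. The part of these markers in the members' levels was not tested. In bulk tissue, fewer cells of a type and less RNA per cell cannot be told apart.

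**Figure D4:**
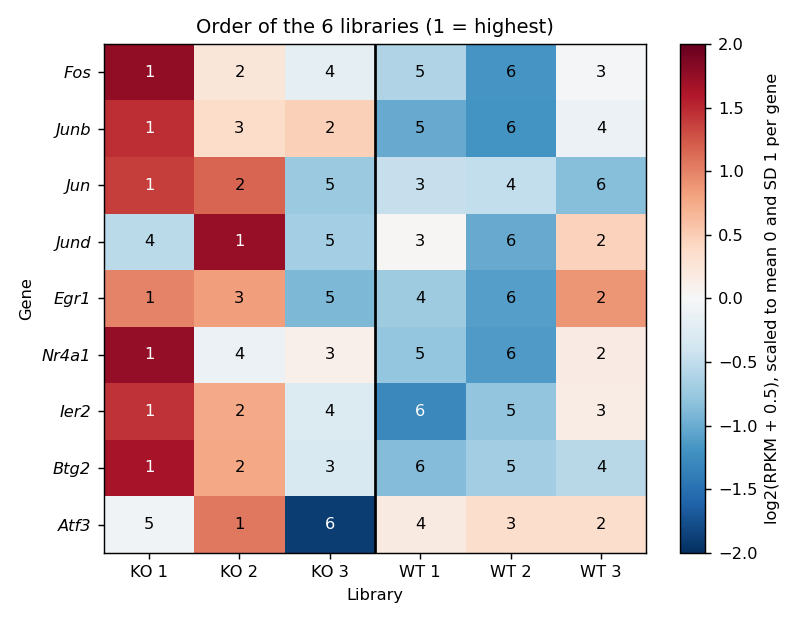
Heat map of the 9 genes (rows) in the 6 libraries (columns), Rbpms KO left and WT right of the line. Colour is log2(RPKM + 0.5) scaled to a mean of 0 and an SD of 1 per gene, red high and blue low, and the printed digit is the rank among the 6 libraries with 1 the highest. Rbpms KO replicate 1 ranks 1 for 7 of the 9 genes, and WT replicate 2 ranks 6 for 5.

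The SD of log2(RPKM + 0.5) was larger by over 0.01 among Rbpms KO than among WT libraries for 8 of the 9 genes, and for Egr1 the 2 SDs were nearly equal, at 0.192 in Rbpms KO and 0.191 in WT. The median SD was 0.288 in Rbpms KO and 0.160 in WT for the members, against 0.139 in Rbpms KO and 0.108 in WT for all tested genes, of which 58.2% had an SD larger by over 0.01 in Rbpms KO. Among genes averaging 5 RPKM or more, those whose pattern over the 6 libraries was most like that of Fos were Mpp5, 2410006H16Rik, Ubr7, Col4a3bp and Usp47 (r of 0.980 to 0.991). Those most like the mean of the members were Slc39a8, Copb1, Nop53, Ier5 and Ppfibp1 (r of 0.988 to 0.997). Slc39a8, which encodes a zinc and manganese transporter, had 8.72, 7.63 and 4.85 RPKM in Rbpms KO, against 4.62, 4.54 and 5.84 RPKM in WT, with Rbpms KO replicate 3 inside the WT range. Both rankings chose the best of 6241 genes over 6 libraries that share 1 scaling, as a description of order only, and limma called 0 of these 10 genes with all libraries.

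The other early response genes were read from a list of 32 genes, of which 28 were tested. Of these, 4 rose and 1 fell in Rbpms KO, against 2.38% and 3.99% of all tested genes, with a median difference of 0.34 against -0.03. Tob1, an antiproliferative relative of Btg2, had 42.4, 37.1 and 37.6 RPKM in Rbpms KO, against 23.9, 24.9 and 26.8 RPKM in WT. The groups were well apart, and the difference was 0.62 (limma adjusted p = 0.0056). Klf6, a zinc finger factor, had 71.8, 65.3 and 52.1 RPKM in Rbpms KO, against 34.3, 34.4 and 40.0 RPKM in WT (0.78, limma adjusted p = 0.0118). Klf6 was highest in Rbpms KO replicate 1, and even its lowest Rbpms KO library was above every WT library. Ppp1r15a, which directs a phosphatase to eIF2 alpha, had 17.0, 14.8 and 13.1 RPKM in Rbpms KO, against 6.53, 7.58 and 9.95 RPKM in WT (0.87, limma adjusted p = 0.0187). Sgk1, a kinase induced by serum and glucocorticoids, was the fourth to rise, with 31.1, 24.8 and 23.7 RPKM in Rbpms KO, against 15.9, 16.0 and 18.2 RPKM in WT (0.64, limma adjusted p = 0.0179). Klf10, a factor induced by TGF beta, fell, with 4.72, 4.89 and 6.30 RPKM in Rbpms KO, against 9.51, 9.58 and 10.7 RPKM in WT (-0.85, limma adjusted p = 0.0066). Klf6, Ppp1r15a and Sgk1 were no longer called without WT replicate 1 or without WT replicate 2, nor was Ppp1r15a without Rbpms KO replicate 2, whereas Tob1 and Klf10 were called with each library left out in turn.
Ctgf, a secreted matrix protein named after its values were seen, had 218, 173 and 67.0 RPKM in Rbpms KO, against 57.8, 58.0 and 60.1 RPKM in WT. Rbpms KO replicate 1 was highest and replicate 3 lowest among its Rbpms KO libraries, as for Jun and Btg2. The difference was 1.21 and did not pass (limma adjusted p = 0.0975).

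The factors and kinases that drive early genes, and the proteins that pair with AP-1 members, were read from lists of their own. Of 22 upstream regulators (serum response factor, its partners, CREB and MEF2 factors and MAP kinases), 1 rose and 0 fell, against 2.38% and 3.99% of all tested genes, with a median of -0.06 against -0.03. The groups did not overlap for 5 with Rbpms KO above and 5 with Rbpms KO below, against 11.6% and 18.2% of all tested genes. The 1 called gene was Elk3, a ternary complex factor, at 24.7 RPKM in Rbpms KO and 19.9 RPKM in WT (0.30, limma adjusted p = 0.0453, over a range of 0.0371 to 0.206 for the alternatives). Its call was lost without each library in turn except WT replicate 3. Mapk3, the kinase ERK1, had a difference of 0.27 and did not pass (limma adjusted p = 0.0667). Srf, serum response factor itself and named after its values were seen, had 17.8, 30.7 and 25.3 RPKM in Rbpms KO, against 32.5, 35.1 and 46.7 RPKM in WT. All its Rbpms KO libraries were below all WT libraries, and the difference of -0.64 did not pass (limma adjusted p = 0.107). Of the 8 tested bZIP partners of AP-1 proteins, 1 rose and 0 fell, against the same 2.38% and 3.99% of all tested genes, with a median of 0.23. The 1 called gene was Mafg, a small Maf protein, at 5.86 RPKM in Rbpms KO and 3.96 RPKM in WT (0.51, limma adjusted p = 0.0176), and its call was lost without WT replicate 1, WT replicate 2 or Rbpms KO replicate 2. Jdp2, a repressor that pairs with Jun proteins, had a difference of 0.57 and did not pass (limma adjusted p = 0.0666).

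Of 15 feedback inhibitors, phosphatases and adaptors that end MAP kinase signalling or Egr1 action, 4 rose and 1 fell, against 2.38% and 3.99% of all tested genes, with a median of 0.11 against -0.03. Dusp4, a nuclear MAP kinase phosphatase, had 13.7, 8.37 and 8.78 RPKM in Rbpms KO, against 2.36, 2.43 and 2.60 RPKM in WT. The groups were far apart, with Rbpms KO replicate 1 highest as for Fos, and the difference was 1.83 (limma adjusted p = 0.0011). Dusp4 (chr8:34807297-34819894, plus strand) lies near the targeted gene Rbpms (chr8:33782643-33929863, minus strand) on the same chromosome. The part of this position in the difference of Dusp4 was not tested. Dusp6, the ERK phosphatase of the cytoplasm, was at 14.2 RPKM in Rbpms KO and 9.40 RPKM in WT (0.58, limma adjusted p = 0.0179). Dusp2 was at 1.75 RPKM in Rbpms KO and 0.748 RPKM in WT (0.87, limma adjusted p = 0.0265), and Spry4, an inhibitor of receptor tyrosine kinase signalling, was at 4.53 RPKM in Rbpms KO and 2.81 RPKM in WT (0.59, limma adjusted p = 0.0377). Dusp14 fell, at 0.437 RPKM in Rbpms KO and 1.39 RPKM in WT (-1.04, limma adjusted p = 0.0194). Dusp14 in Rbpms KO and Dusp2 in WT were near the 0.5 RPKM used as filter and pseudocount. The Dusp14 difference was -1.57 with a pseudocount of 0.1 RPKM and -0.75 with 1 RPKM. With at least 1 RPKM required in all libraries, which drops Dusp2 and Dusp14, 3 feedback inhibitors were called. Of the called genes, Dusp4 was called with each library left out in turn, and the calls for the others were lost without WT replicate 1 or WT replicate 2. Without Rbpms KO replicate 2 the calls of Dusp6, Dusp2 and Spry4 were also lost, as were that of Dusp2 without Rbpms KO replicate 1 and that of Spry4 without Rbpms KO replicate 3 or WT replicate 3.

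Heat shock and metal response genes, which also react to tissue stress, were read beside them. Of 12 tested, 0 rose and 0 fell by limma, against 6.37% of all tested genes called in either direction. An unadjusted p below 0.05 was found for 3 of the 12, against 23.5% of all tested genes, and the median was 0.00. Mt1, a metallothionein that binds zinc and copper, was the closest to the threshold, at 28.6 RPKM in Rbpms KO and 19.1 RPKM in WT (0.56, limma adjusted p = 0.0956). Hsp90aa1, an inducible chaperone, followed at 129.6 RPKM in Rbpms KO and 107 RPKM in WT (0.28, limma adjusted p = 0.107).

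**Figure D5:**
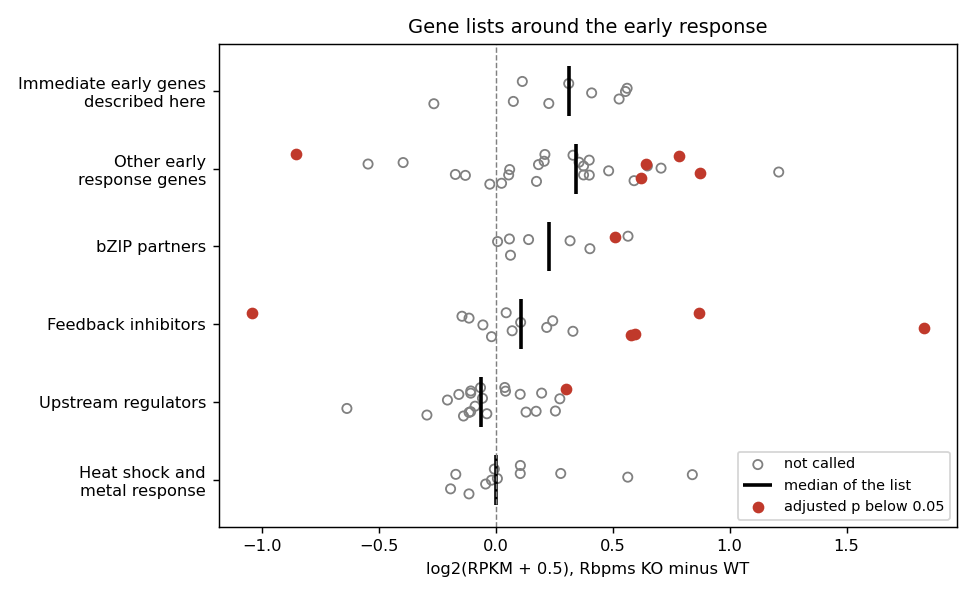
Difference in mean log2(RPKM + 0.5), Rbpms KO minus WT, for each tested gene of the members and of the 5 other lists, with the list's median as a bar. Filled red points are genes with a limma adjusted p below 0.05 and open points are genes not called. The medians are 0.31 for the members, 0.34 for the other early response genes and 0.00 for heat shock and metal response genes, and the members' median is 0.16 without Rbpms KO replicate 1.

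Exon number and the letters of the 3' UTR were read as features of the members' transcripts, with 1 transcript a gene. Of the 9 genes, 4 (Jun, Junb, Jund and Ier2) had a single exon in GENCODE release M21, against 2.27% of 11975 tested genes with an annotated 3' UTR. The letters ATTTA of AU-rich elements, which mark many short-lived mRNAs, were present in the 3' UTR of 88.9% of the members and 70.9% of those genes, with a median 3' UTR of 815 bases in the members and 1192 bases in those genes. The density was 2.68 per kilobase in the members and 1.85 per kilobase in the tested genes. The longer TTATTTATT letters occurred only in Fos among the members, at base 655 of its 815-base 3' UTR, and in 8.05% of the tested genes. The site is shown because this element is the textbook case of a short-lived mRNA, with the 9 letters in capitals.
Fos 3' UTR site, GENCODE release M21, chr12:85477105-85477130, plus strand: ttttcaatTTATTTATTaagatggat
The authors' deposited splicing tables compared a first and a second set of 3 libraries without naming the genotype of either. In them Nr4a1 had an exon at chr15:101268928-101269103 with inclusion levels of 0.372, 0.372 and 0.228 in the first set and 0.151, 0 and 0 in the second set as the authors' values. Behind them were 4, 2 and 1 inclusion reads and 2, 1 and 1 skipping reads in the first set. The second set had 3, 0 and 0 inclusion reads and 5, 3 and 3 skipping reads. The authors' false discovery rate for the exon was 0.230. They listed this exon only with reads on the exon counted beside junction reads, and not with junction reads alone. Fosb had a retained intron at chr7:19305007-19305146 with 2 inclusion reads in the first set and 1 skipping read in the second set, too few to compare.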

How the data were processed

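RNA from 3 Rbpms KO and 3 WT ventricle samples was compared. Expression was deposited by the authors as RPKM, scaled to the listed genes: RPKM times gene length summed to 1000000 in each library. Low values were whole multiples of a step for 38.4 to 73.1% of genes at a tolerance of 0.1, so reads were not recovered, the depth is unknown and no count test was run. The tools FastQC 0.11.4, featureCounts 1.6.0 and edgeR 3.30.1, and builds labelled GRCm38 and mm10, are listed per the submitters' processing notes. The aligner and the settings were not given in the sources used here. The authors' deposited comparison holds log2 fold changes, a likelihood ratio score, p-values and false discovery rates per gene, per the file headers. The deposited splicing tables hold inclusion levels and inclusion and skipping read counts, per the file headers, with sets not tied to a genotype.

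The 12911 genes that reached 0.5 RPKM in 3 or more of 6 libraries were compared as log2(RPKM + 0.5), Rbpms KO minus WT. The fit used limma 3.58.1 (R 4.3.3) and its mean-variance trend. P-values were adjusted by Benjamini-Hochberg over these genes, and those below 0.05 were called. The step was tested on simulated data. Levels, order and motifs were computed in Python 3.11.15 with pandas 2.3.3 and scipy 1.17.1. The labels call the libraries biological replicates but do not say how many animals each holds, so p-values cover only the spread among the libraries, which may be technical. The members and the lists (other early response genes, upstream regulators, bZIP partners, feedback inhibitors, heat shock and metal response, and cell type markers) were chosen with earlier results of these data known. Named genes were the members, the called genes of each list (up to 6, or the 2 with the lowest adjusted p where fewer than 2 were called), Rbpms, and the 5 genes most like Fos and most like the members' mean. Alternatives were other pseudocounts and filters, another scaling, a replicate block, no trend, WT replicates 1 and 2 averaged, and leaving out each library.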

Additional observations from a re-analysis of the deposited data

How the results depend on the processing

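The number of genes called moved with the setting: 492 with at least 1 RPKM required in all libraries (which drops Fos), 545 with a replicate block, 213 with WT replicates 1 and 2 averaged as 1 sample, and 192 to 868 when each library was left out (435 and 525 with replicate 2 or 3 of Rbpms KO omitted, 237 and 192 with replicate 1 or 2 of WT omitted), against 822. Rescaling by the median ratio gave 426 higher and 414 lower genes, against 307 and 515. Of the 9 members, 1 was called after rescaling (Junb, limma adjusted p = 0.0463, against 6.52% of genes), and 0 to 2 when a library was left out: Jun and Btg2 without Rbpms KO replicate 3 (against 4.07%), Junb without WT replicate 3 (limma adjusted p = 0.0496, against 6.72%). Under all other settings 0 were called. Signs reversed for Jund without Rbpms KO replicate 2 (-0.091) and without WT replicate 2 (-0.013), and for Atf3 without Rbpms KO replicate 3 (0.088). With each library left out, Egr1 ran between 0.041 and 0.22, Jund between -0.091 and 0.17, and Atf3 between -0.57 and 0.088. Of the other early response genes, 7 were called after rescaling, 2 with WT replicates 1 and 2 averaged, and 2 to 9 when a library was left out (2 without WT replicate 1 or 2, 9 without Rbpms KO replicate 3), against 5. Same-numbered libraries did not all deviate together (correlations 0.213, -0.271 and 0.122), so the replicate numbers were not read as pairs. Under the replicate block 0 members were called, and Elk3 (limma adjusted p = 0.0861) and Dusp2 (limma adjusted p = 0.0577) were no longer called. The causes of these shifts were not tested. With unknown depth, no interval from counting error was given.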
